A study of Mus musculus with 8 samples.

Results

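Nuclear genes of the mitochondrial respiratory chain, the ATP synthase and the mitochondrial ribosome were examined in m6A-eCLIP libraries of the αTC1-6 line, which derives from mouse pancreatic alpha cells. Members were the protein-coding genes on nuclear chromosomes whose mouse RefSeq symbol begins with Nduf, Cox4 to Cox8, Uqcr, Atp5, Mrpl or Mrps and whose span holds at least 1 site of the deposited table. Of 170 annotated genes with such symbols, 100 met this rule, against 6531 genes with a site in the whole series. They were 21 of 41 complex I subunits, 4 of 8 complex I assembly factors, 6 of 8 complex III genes, 6 of 18 complex IV genes, 11 of 17 ATP synthase genes, 34 of 49 genes of the large mitoribosome subunit and 18 of 29 of the small one. The other 70 had no site in the table used here. Of the 100 members, 96 had 412 sites of their own, with a median of 3 per gene and 16 genes with 1. Mrpl48, Cox7a2, Atp5d and Mrps18a had only sites that also lie in another protein-coding gene and had no counts of their own.

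The assay uses an antibody against N6-methyladenosine (m6A), crosslinks it to RNA with ultraviolet light and counts sequenced fragments at the resulting sites. The antibody libraries are called IP, and the Input libraries count reads at the same sites without selection by the antibody. The 4 groups were M14KD IP and M14KD Input (replicates 3 and 4), from cells given siRNA against Mettl14, and SCR IP and SCR Input (replicates 1 and 2), from cells given a scramble siRNA. All 8 libraries came from the same cell line with no other allele or agent named in the labels, which give no time of treatment and do not say whether replicates were separate cultures. The p-values therefore reflect the variation among these 8 libraries, which may be technical.

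Summed site counts were 10207383 to 10918559 in the IP libraries and 3438530 to 3637740 in the Input libraries. Mettl14, the siRNA target, had 42 and 25 counts in M14KD IP against 78 and 81 in SCR IP, and 32 and 22 counts in M14KD Input against 64 and 44 in SCR Input, so the M14KD libraries were lower in both kinds. Its fitted log2 fold change was -1.17 in IP (edgeR adjusted p = 0.156) and -0.96 in Input (edgeR adjusted p = 0.260). Neither passed the threshold of 0.05. Mettl3, its catalytic partner, had no site. Sites were found in 6 of 10 alpha cell markers, in 0 of 6 beta cell markers, in 0 of 3 delta and PP cell markers, in 0 of 4 non-endocrine markers and in 1 of 5 exocrine and duct markers (Sox9). In CPM (a gene's counts scaled to the library's summed site counts), the alpha markers together had 24816 to 25315 in M14KD IP and 20768 to 21753 in SCR IP, and 72558 to 73177 in M14KD Input and 61812 to 64909 in SCR Input, while Sox9 had at most 5.77 in any library. In the IP libraries the SCR replicates stood further apart than the M14KD replicates, with a chi-square over degrees of freedom across genes of 5.24 in M14KD IP and 8.92 in SCR IP.

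The respiratory chain passes electrons from NADH through complexes I, III and IV to oxygen and pumps protons across the inner mitochondrial membrane, and the ATP synthase uses that gradient to make ATP. A few core subunits are encoded in mitochondrial DNA and are made by the mitochondrial ribosome. All other subunits, and every protein of that ribosome, are encoded in the nucleus, translated in the cytosol and imported. In pancreatic islet cells, oxidative ATP production is part of the coupling of nutrients to hormone release.

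The first comparison asked how many reads the antibody recovered from each gene relative to Input. Counts per gene were the sum over its own sites. Most members were recovered less than the typical gene. In M14KD cells 10 of 96 members were higher in IP than in Input and 77 were lower (edgeR quasi-likelihood test, adjusted p under 0.05), where 35.5% of all genes tested were higher and 35.6% lower. In SCR cells 10 were higher and 76 lower, where 35.2% of all genes were higher and 34.7% lower. The median member log2 ratio was -0.83 in M14KD and -0.92 in SCR, beside 0.02 and 0.04 for all 6379 genes tested. Of the members, 9 were higher and 75 lower in both genotypes. The scaling used (TMM) places the typical gene near 0, so these signs are relative to other genes. With column totals instead, the median of all genes was 0.73 in M14KD and 0.75 in SCR, 30 members were higher and 42 lower in M14KD, and 31 were higher and 43 lower in SCR, while the members' median stayed 0.85 below that of all genes in M14KD and 0.96 below it in SCR. Counting both directions, column totals called 75% of members and 78.5% of all genes in M14KD. In SCR the shares were 77.1% of members and 79.2% of all genes.

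The ATP synthase genes had the lowest median log2 ratio of the 7 roles, at -2.16 in M14KD and -2.22 in SCR, and all 10 tested were lower in IP in both genotypes. Atp5b, the catalytic beta subunit of its F1 head, had 302 and 335 CPM in M14KD IP and 1266 and 1339.8 CPM in M14KD Input, with 274 and 339.7 CPM in SCR IP and 1338 and 1354 CPM in SCR Input. Its ratio of IP to Input CPM was 0.239 and 0.250 in the M14KD replicates and 0.205 and 0.251 in the SCR replicates, and the fitted log2 ratio was -2.72 (SE 0.10) in M14KD and -2.83 (SE 0.10) in SCR. Every IP library was thus well below every Input library, and the genotypes overlapped. Atp5a1, the alpha subunit beside it, had the lowest log2 ratio of all members at -2.91 (SE 0.09) in M14KD and -3.11 (SE 0.09) in SCR, from 1 site. Low ratios were also fitted for Atp5h, the d subunit of the peripheral stalk (-2.23 in M14KD and -2.49 in SCR), Atp5mpl, a small membrane subunit (-2.34 in M14KD and -2.35 in SCR), and Atp5e, the epsilon subunit of the central stalk (-2.17 in M14KD and -2.27 in SCR).

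Subunits of the electron transport complexes followed. All 6 complex III genes were lower in IP in both genotypes, with a median log2 ratio of -1.61 in M14KD and -1.65 in SCR. Uqcr10, a small subunit of that complex, had 711 and 679 CPM in M14KD IP and 2645 and 2527 CPM in M14KD Input, with 609 and 648 CPM in SCR IP and 2333 and 2416 CPM in SCR Input. Its log2 ratio was -2.58 (SE 0.07) in M14KD and -2.61 (SE 0.07) in SCR. No IP library of this gene came near an Input library. Of the 5 complex IV genes tested, 4 were lower in both genotypes, among them Cox6a1, a nuclear regulatory subunit, at -2.58 (SE 0.08) in M14KD and -2.70 (SE 0.08) in SCR. The exception was Cox7a2l, a protein involved in joining complexes III and IV into supercomplexes, with 0.01 (SE 0.07) in M14KD and 0.08 (SE 0.07) in SCR and no call in either.

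Complex I subunits had a median log2 ratio of -1.08 in M14KD and -1.06 in SCR, with 20 of 21 lower in M14KD and all 21 lower in SCR. Ndufa4 carries a complex I name, although the protein is described as a subunit of complex IV. It had 1088 and 1028 CPM in M14KD IP and 3411 and 3245 CPM in M14KD Input, with 861 and 879 CPM in SCR IP and 2941 and 2963 CPM in SCR Input. Its log2 ratio was -2.34 (SE 0.07) in M14KD and -2.46 (SE 0.07) in SCR, the lowest among genes with this prefix. The 4 assembly factors, which help build complex I and are not part of it, stood apart from the subunits. Their median was 0.12 in M14KD and -0.02 in SCR, and Ndufaf4 had the highest log2 ratio of all members at 1.29 (SE 0.10) in M14KD and 1.40 (SE 0.10) in SCR. Ndufaf4 had 672 and 616 CPM in M14KD IP and 157 and 170.4 CPM in M14KD Input, with 548 and 499 CPM in SCR IP and 137 and 109 CPM in SCR Input, so that all IP libraries lay above all Input libraries. Ndufaf2, another assembly factor, was lower in IP (-0.71 in M14KD and -0.64 in SCR), Ndufaf1 was called higher in M14KD (0.33) and not called in SCR (0.20), and Ndufaf7 had no call (-0.10 in M14KD and -0.23 in SCR).

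**Figure D1:**
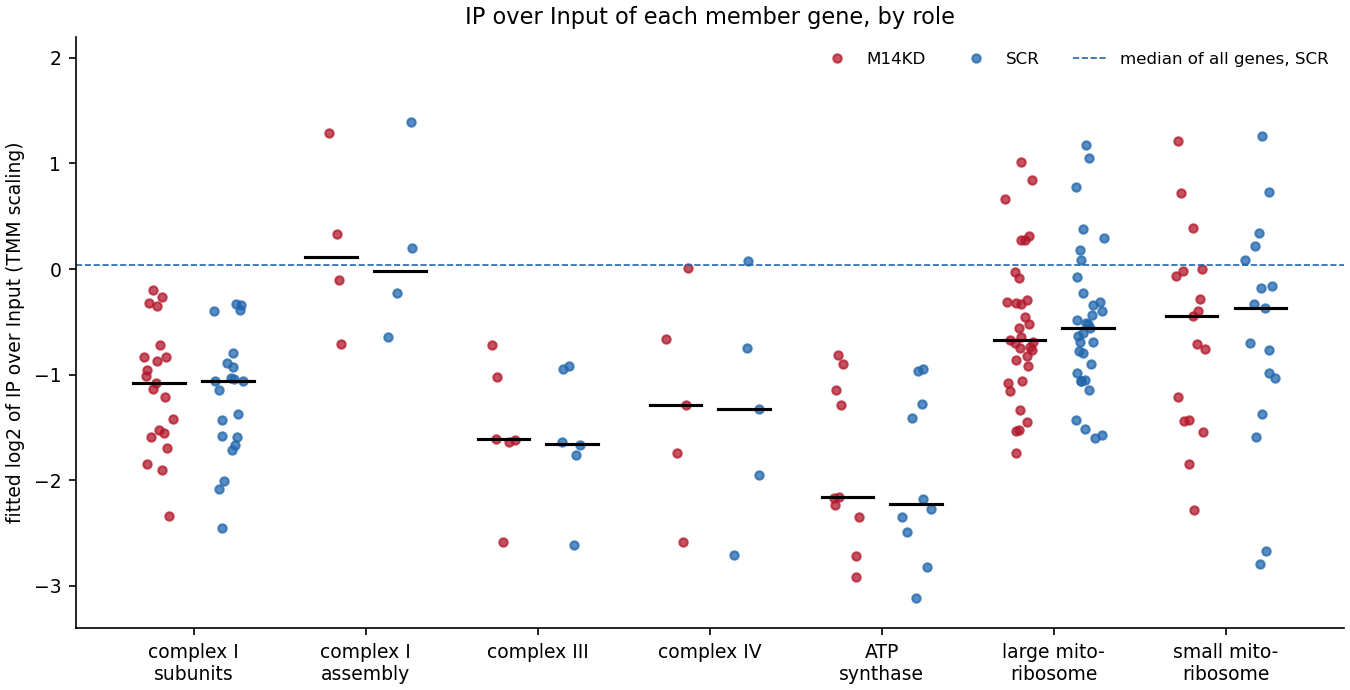
Fitted log2 of IP over Input of each tested member gene (vertical axis), grouped by role, with M14KD to the left of SCR within a role; each point is 1 gene, black bars are medians and the dashed line is the median of all genes in SCR (0.04). The ATP synthase genes lie lowest (median -2.16 in M14KD and -2.22 in SCR), and the genes above 0 are mostly mitoribosome genes and assembly factors.

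The mitoribosome genes spread around a higher centre. Genes of the large subunit had a median log2 ratio of -0.67 in M14KD and -0.56 in SCR, with 5 of 33 higher and 25 lower in M14KD, and 5 higher and 24 lower in SCR. Genes of the small subunit had a median of -0.44 in M14KD and -0.37 in SCR, with 3 of 17 higher and 11 lower in M14KD, and 4 higher and 10 lower in SCR. Of the 10 members with the highest ratio in SCR, 9 were mitoribosome genes. Mrps27, a small subunit protein, had 158 and 166 CPM in M14KD IP and 45.1 and 41.6 CPM in M14KD Input, with 156 and 165 CPM in SCR IP and 33.2 and 49.8 CPM in SCR Input. Its log2 ratio was 1.22 (SE 0.14) in M14KD and 1.26 (SE 0.14) in SCR. Mrpl19 (1.02 in M14KD and 1.18 in SCR), Mrpl46 (0.85 in M14KD and 1.05 in SCR), Mrps2 (0.72 in M14KD and 0.73 in SCR) and Mrpl12 (0.28 in M14KD and 0.38 in SCR) were called higher in both genotypes, as were Mrpl27, Mrps25 and Mrpl57. Mrps34 was called in SCR (0.22) and not in M14KD (-0.01). Its SCR call was lost with DESeq2 (adjusted p = 0.0823), with DESeq2's size factors, with a mean count of at least 20 and without any 1 of the 4 replicates. In M14KD the call of Mrpl12 was lost without replicate 4 (log2 ratio 0.25) and that of Mrpl57 without replicate 3 (0.29) or 4 (0.32), and in SCR that of Mrpl57 without replicate 1 (0.24). Genes were placed in this group by symbol alone. The lowest of the group were Mrps18c (-2.28, SE 0.26, in M14KD and -2.79, SE 0.29, in SCR) and Mrps36 (-1.85, SE 0.46, in M14KD and -2.67, SE 0.47, in SCR). Both had 1 site, and Mrps36 had at most 3.85 CPM in any library, so their ratios are poorly measured. When 1 site was kept per 100 bases, Mrpl27 had a log2 ratio of -0.18 in M14KD and 0.10 in SCR and Mrps25 had 0.13 in SCR, none of them called, while Mrps25 in M14KD was called at 0.28.

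The ratio was also lower at high Input counts in the series as a whole. Among genes outside the members in the top 10% of Input CPM, the median log2 ratio was -0.49 in both genotypes, against -1.59 in M14KD and -1.64 in SCR for the 29 respiratory chain and ATP synthase genes of that class and -0.67 in M14KD and -0.60 in SCR for its 15 mitoribosome genes. Between the 50th and 90th percentiles the medians were -0.71 in M14KD and -0.78 in SCR for 16 respiratory chain and ATP synthase genes, -0.49 in M14KD and -0.46 in SCR for 30 mitoribosome genes, and 0.02 in M14KD and 0.03 in SCR for 2537 other genes. Genes were classed by their mean CPM in SCR Input for both genotypes. In SCR the same counts are the denominator of the ratio, so a lower ratio in the top class is partly fixed by how the classes were formed. These CPM are sums over sites and are not divided by transcript length. The part of Input depth in the members' ratios was not tested.

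The place of the sites within the gene differed between the respiratory chain and the mitoribosome. The strand, and so the start, was known for 80 members with 365 sites. Within 100 bases of the start lay 74 of 133 sites of the respiratory chain and ATP synthase genes (55.6%), 11 of 232 sites of the mitoribosome genes (4.74%) and 484 of 25528 sites of the rest of the series (1.90%). By gene, 30 of 39 respiratory chain and ATP synthase genes had such a site (76.9%), against 7 of 41 mitoribosome genes (17.1%) and 358 of 5179 other genes (6.91%). In the last 20% of the span the order was the reverse, with 23.3% of the sites of the respiratory chain and ATP synthase genes, 59.5% of those of the mitoribosome genes and 62.4% of the rest. Site placement is a property of the shared site list and not of a genotype, so it carries no test here.

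By role, sites within 100 bases of the start were present in 7 of 8 ATP synthase genes, 15 of 18 complex I subunits, 4 of 5 complex III genes and 3 of 4 complex IV genes, but in 1 of 4 complex I assembly factors, 5 of 27 large and 2 of 14 small mitoribosome genes. In 6 ATP synthase genes, 10 complex I subunits, 3 complex III genes and 2 complex IV genes, all sites lay there. The contrast was present within classes of gene span. In spans under 5 kb, 69.7% of the sites of the respiratory chain and ATP synthase genes were near the start, against 5.26% for mitoribosome genes and 4.61% for other genes, and in spans of 5 to 20 kb it was 47.1% of the sites of the respiratory chain and ATP synthase genes, 5 of 100 mitoribosome sites and 2.47% of the sites of other genes. In the top 10% of Input CPM, 22 of 24 respiratory chain and ATP synthase genes, 3 of 14 mitoribosome genes and 94 of 488 other genes (19.3%) had a site near the start.

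**Figure D2:**
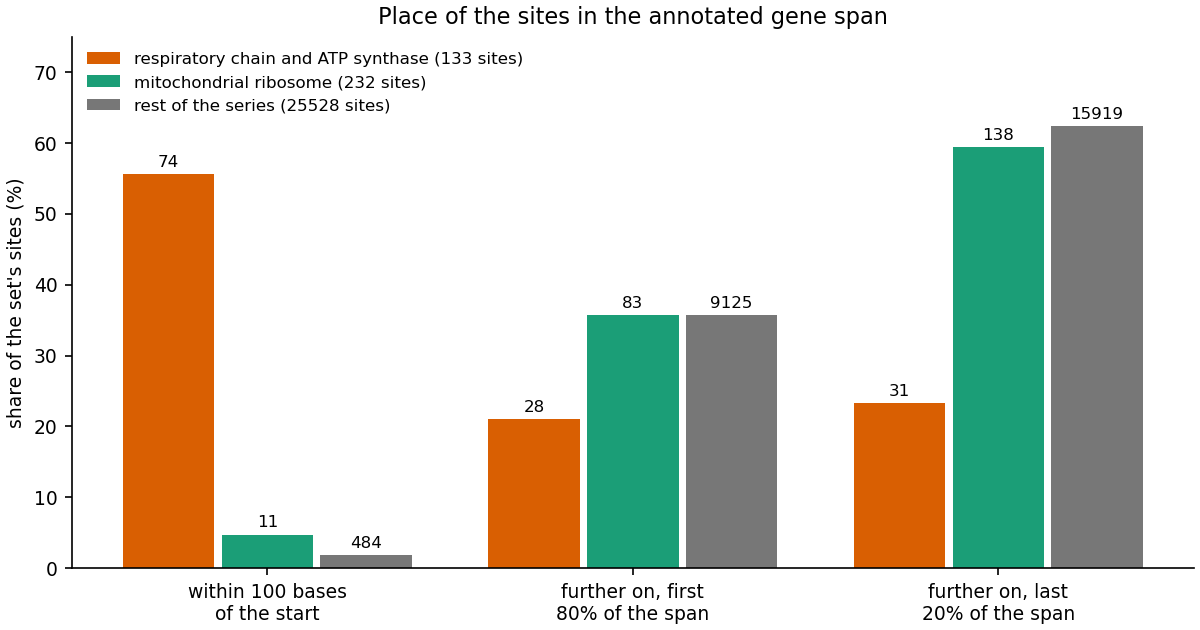
Share of each set's sites (vertical axis, %) by place in the annotated gene span, for respiratory chain and ATP synthase genes, mitoribosome genes and the rest of the series; the number of sites stands above each bar. Sites within 100 bases of the start make up 55.6% of the first set, 4.74% of the second and 1.90% of the rest.

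The transcribed bases around 9 of these sites are shown because they are the start-proximal positions on which the contrast between the sets rests: 7 from respiratory chain and ATP synthase genes and 2 from mitoribosome genes that do have such a site. The sequences are from RefSeq (build GRCm38.p6), are written 5′ to 3′ on the gene's strand, and the capital marks the base at the site. For Ndufa4 the window is chr6:11907430-11907450 (minus strand, site at base 11 of the transcript), for Ndufb2 chr6:39592575-39592595 (plus strand, base 21) and for Ndufc1 chr3:51408921-51408941 (minus strand, base 25). For Uqcr10 it is chr11:4704299-4704319 (minus strand, base 36), for Cox8a chr19:7217590-7217610 (minus strand, base 17), for Atp5e chr2:174464078-174464098 (minus strand, base 14) and for Atp5pb chr3:105959233-105959253 (minus strand, base 21). For Mrpl12 it is chr11:120484662-120484682 (plus strand, base 36) and for Mrpl53 chr6:83109128-83109148 (plus strand, base 31).
Ndufa4: ggacgtccgcTcagccaggtt
Ndufb2: gaagtgacgcAtcaggggtgg
Ndufc1: tgcggaacaaGatggcgccgt
Uqcr10: gcagtgaggcAacatgtcgtc
Cox8a: ggcgtccggcAacttcagcgc
Atp5e: accccttccgCtactcaggcc
Atp5pb: tgcccctgacAggctcgggtc
Mrpl12: gccgcgtgtgAccttcccgct
Mrpl53: ctcggctcggActacggccgg

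Not all of these bases are adenosine. Over all 45 member sites within 50 bases of the start, in 26 genes, the base at the site was A at 35.6%, C at 13.3%, G at 15.6% and T at 35.6%, against 37.0%, 12.1%, 31.1% and 19.8% at 389 such sites of 309 other genes. Sites a few bases apart in 1 gene hold nearly the same counts, so these positions are not independent.

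Reads at start-proximal sites were low in IP relative to other sites. Their median log2 ratio of IP over Input was -1.17 in M14KD and -1.33 in SCR in the respiratory chain and ATP synthase genes, -0.95 in M14KD and -1.07 in SCR in the mitoribosome genes, and -1.14 in M14KD and -1.17 in SCR in the rest of the series. In SCR, 73 of 74 such sites of the first set and 11 of 11 of the second were called lower and 0 higher, against 388 lower and 11 higher of 480 in the rest. With column totals, which put the median of all sites at 0.77 in SCR, 54 of 74 sites of the first set were lower and 5 higher, 6 of 11 of the second lower and 1 higher, and 253 of the rest lower and 76 higher. At the Ndufa4 site shown above, counts were 1444 and 1273 in M14KD IP and 1910 and 1735 in M14KD Input, with 1158 and 1125 in SCR IP and 1591 and 1628 in SCR Input. In CPM this was 136.8 and 124.7 in M14KD IP and 528 and 505 in M14KD Input, with 106.1 and 106.4 in SCR IP and 439.9 and 447 in SCR Input, and the log2 ratio relative to other sites (TMM) was -2.70 (SE 0.09) in M14KD and -2.78 (SE 0.09) in SCR. At the Atp5pb site, in the gene for the b subunit of the peripheral stalk, counts were 3206 and 2678 in M14KD IP and 1047 and 906 in M14KD Input, with 2719 and 2718 in SCR IP and 966 and 992 in SCR Input, for a log2 ratio of -0.69 (SE 0.09) in M14KD and -0.81 (SE 0.09) in SCR. Both sites were called lower in IP in both genotypes, but for the Atp5pb site this holds only relative to other sites. Its CPM was 304 and 262 in M14KD IP and 289.7 and 263 in M14KD Input, and 249 and 257 in SCR IP and 267 and 273 in SCR Input, so the libraries were close by column totals.

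Further from the start, the respiratory chain and mitoribosome sites had close medians in the first 80% of the span and lay apart in the last 20%. In the first 80%, the median log2 ratio was -0.23 in M14KD and -0.33 in SCR over 28 sites of 10 respiratory chain and ATP synthase genes, -0.19 in M14KD and -0.20 in SCR for mitoribosome sites, and 0.12 in both genotypes for the rest. The spreads differed, with a lower quartile of -2.11 in M14KD and -2.25 in SCR for the first set. For mitoribosome sites it was -0.81 in M14KD and -0.86 in SCR. The first set includes the 4 complex I assembly factors, which had 16 sites, 2 of them within 100 bases of the start. Their part in this median was not tested. In the last 20% of the span, sites of respiratory chain and ATP synthase genes had a median log2 ratio of -1.73 in M14KD and -1.72 in SCR, mitoribosome sites -0.61 in M14KD and -0.54 in SCR, and those of the rest 0.07 in M14KD and 0.10 in SCR. The value for the respiratory chain and ATP synthase genes rests on 30 tested sites of 9 genes, and 17 of these sites belong to Uqcrfs1, the iron-sulfur subunit of complex III, whose sites had a median of -1.64 in M14KD and -1.70 in SCR. Without Uqcrfs1 the median over 13 tested sites of 8 genes was -2.24 in M14KD and -2.13 in SCR.

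**Figure D3:**
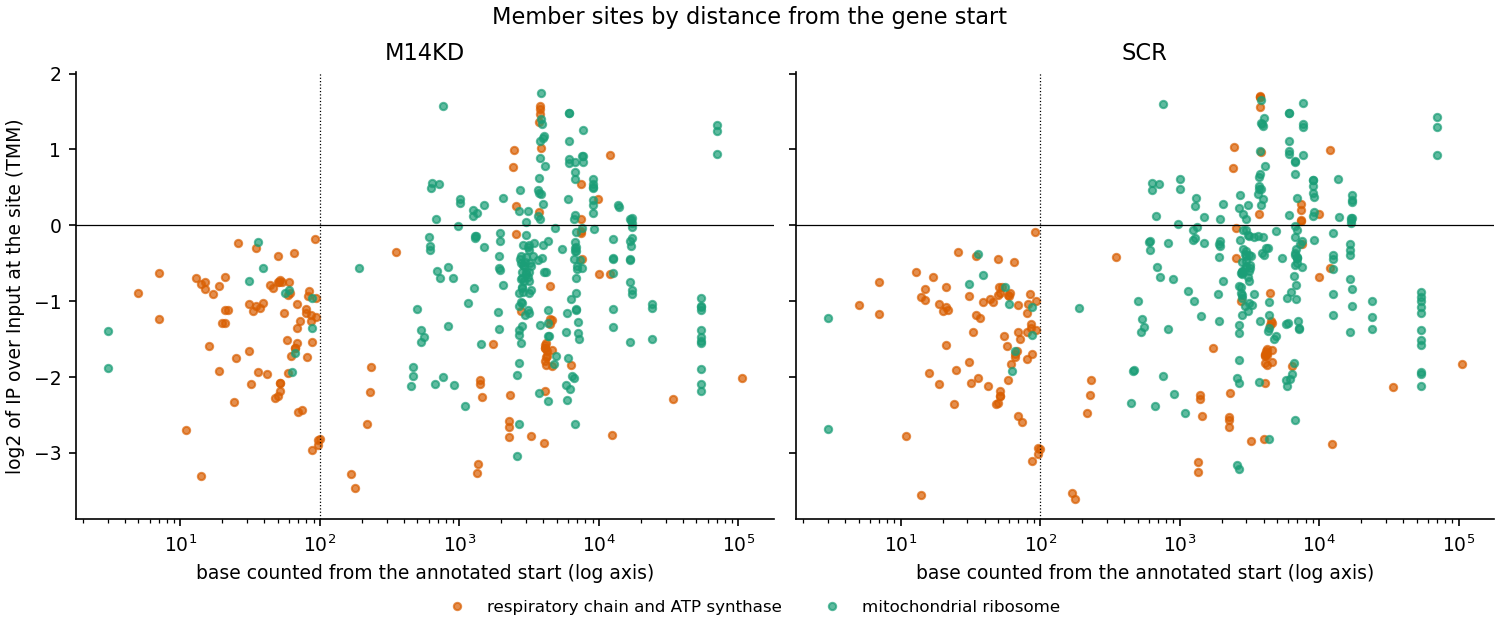
Log2 of IP over Input at each member site (vertical axis) against its base number from the annotated start (log axis), for M14KD on the left and SCR on the right; the dotted line marks 100 bases. With TMM scaling, sites to the left of the line lie below 0 in both genotypes, and those to the right range on both sides of it.

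Over all places, 55 of 410 tested member sites were called higher in IP and 285 lower in M14KD, where 33.8% of all sites were higher and 33.1% lower, and 60 were higher and 282 lower in SCR, where the shares were 34.0% and 33.4%. With column totals the split in SCR was 148 higher and 180 lower, with 80% of member sites and 75.9% of all sites called in either direction. Within single genes the sites ranged widely. Over 63 members with at least 3 tested sites, the median difference between a gene's highest and lowest site was 1.29 log2 units in M14KD and 1.43 in SCR. In SCR, sites called both higher and lower were found within 15 of 39 such mitoribosome genes and 2 of 24 such respiratory chain and ATP synthase genes. The same values for genes outside the members are not given here. The spread is therefore not shown to be particular to the members. Mrpl12, a large subunit protein that also binds the mitochondrial RNA polymerase, had 10 sites that reached from -2.21 to 1.17 in M14KD and from -2.07 to 1.41 in SCR. Its site at position 120484672 of chromosome 11, shown above, was at -0.23 (SE 0.11) in M14KD and -0.38 (SE 0.11) in SCR, and its site at position 120488640, near the end of the gene, was at 1.17 in M14KD and 1.41 in SCR. The Mrpl12 site near the end had 4511 and 4774 counts in M14KD IP and 407 and 442 in M14KD Input, with 4794 and 5023 in SCR IP and 376 and 385 in SCR Input. The gene-level value of Mrpl12 is therefore an average over sites of opposite sign.

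Cox7a2l and Mrpl41, without a gene-level call, also held sites of opposite sign. The 3 Cox7a2l sites on chromosome 17 ran from -2.77 to 0.92 in M14KD and from -2.88 to 0.99 in SCR. The highest, at position 83502292, had 3964 and 3780 counts in M14KD IP and 435 and 410 in M14KD Input, with 4081 and 4210 in SCR IP and 422 and 435 in SCR Input. Mrpl41, another large subunit gene, had 9 sites, from -2.12 to 1.57 in M14KD and from -2.34 to 1.60 in SCR, with the peak at position 24974343 of chromosome 2. The 6 Ndufaf4 sites, between positions 24901770 and 24901914 of chromosome 4, were all above 0 and reached 1.57 in M14KD and 1.71 in SCR. The members with the most sites were Mrps7 (19), Uqcrfs1 (17), Mrps23 (14), Mrps2 (12), and Mrps30 and Mrps6 (11 each). Of these, Mrps2 had 9 sites called higher and 2 lower in SCR, while Mrps7 had 0 higher and 13 lower.

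The next comparison asked which members gained or lost IP reads after Mettl14 knockdown. No member passed: 0 of 95 tested members, as 0.0% of all 6381 genes, had an adjusted p under 0.05 in edgeR. DESeq2 called 4, all higher in M14KD (Cox6c, Cox7b, Ndufa4 and Uqcrh), and 45 of all 6381 genes (0.705%). Fitted values leaned upward. A log2 fold change above 0 was found for 83 of 95 members, where 52.4% of all genes had one, and the median was 0.11 for members and 0.01 for all genes. At an unadjusted p under 0.05 there were 29 members, all with values above 0, where 7.48% of all genes were higher and 6.63% lower at that level. Both M14KD libraries lay above both SCR libraries in CPM for 48 members, where 19.8% of all genes did so, and below them for 5, where 26.3% did. Together the members' own sites took 2.98% and 2.82% of M14KD IP counts and 2.62% and 2.76% of SCR IP counts. The summed level of the alpha cell markers was also higher in the M14KD libraries, as given above, and its part in these values was not tested. Fewer cells of a type and less RNA per cell cannot be told apart in such bulk libraries.

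The highest fitted value was that of Mrps18c, a small mitoribosome subunit gene with few counts, which had 6.54 and 3.92 CPM in M14KD IP and 3.66 and 2.74 CPM in SCR IP (log2 fold change 0.73, SE 0.29, edgeR adjusted p = 0.316). The members lowest in p were respiratory chain genes. Cox6c, a nuclear subunit of complex IV, had 579.6 and 503 CPM in M14KD IP and 407 and 430.2 CPM in SCR IP. Both M14KD libraries were above both SCR libraries, and the log2 fold change was 0.39 (SE 0.08, edgeR adjusted p = 0.156). Uqcrh, the hinge protein of complex III, had 545 and 466 CPM in M14KD IP and 392 and 397 CPM in SCR IP, with a log2 fold change of 0.38 (SE 0.08, edgeR adjusted p = 0.181). Ndufa4 had 1088 and 1028 CPM in M14KD IP against 861 and 879 CPM in SCR IP, a log2 fold change of 0.30 (SE 0.06, edgeR adjusted p = 0.180). The groups did not overlap for any of these genes, but none passed the threshold over all genes.

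Cox7b, a small subunit of complex IV, had 752 and 635 CPM in M14KD IP and 570.5 and 534 CPM in SCR IP, with a log2 fold change of 0.35 (SE 0.09). Atp5h had 45.7 and 44.9 CPM in M14KD IP and 34.3 and 34.5 CPM in SCR IP, with a log2 fold change of 0.42 (SE 0.10). Ndufaf4 stood at 0.32 (SE 0.08), Ndufs4, an accessory subunit of complex I, at 0.36 (SE 0.11), Ndufb7 and Ndufb2, further accessory subunits, at 0.25 (SE 0.07 each) and Mrpl41 at 0.24 (SE 0.07), none of them past the threshold. Without replicate 4, which leaves 1 M14KD library, edgeR called 7 of 96 members higher (Cox6c, Cox7b, Mrps18c, Ndufa4, Ndufaf4, Ndufs4 and Uqcrh) and 2.63% of all genes. It called 2 members without replicate 1 (2.84% of all genes), 1 without replicate 2 (0.297%) and 0 without replicate 3 (0.172%).

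Negative values were few and small. Lowest in p were Mrpl28, with 204 and 202 CPM in M14KD IP and 221 and 221 CPM in SCR IP (log2 fold change -0.10, SE 0.07), and Mrps23, at -0.09 (SE 0.07). Mrps28 (-0.13, SE 0.14), Mrpl13 (-0.08, SE 0.09), Mrpl10 (-0.04, SE 0.07), Mrpl20 (-0.03, SE 0.07) and Mrpl38 (-0.03, SE 0.09) followed. By role the medians were 0.18 for complex I subunits, 0.27 for assembly factors, 0.17 for complex III, 0.20 for complex IV, 0.14 for ATP synthase genes, 0.08 for the large and 0.06 for the small mitoribosome subunit. Of the 29 members under an unadjusted p of 0.05, 24 were respiratory chain or ATP synthase genes (of 46 tested) and 5 were mitoribosome genes (of 49 tested). In IP, sites within 100 bases of the start had a median log2 fold change of 0.18 in respiratory chain and ATP synthase genes. There it was 0.13 in mitoribosome genes and 0.15 in the rest of the series. In the last 20% of the span the medians were 0.15, 0.04 and -0.02 in that order. Between these places they were 0.26, 0.12 and 0.03. The part of site place in the gene values was not tested.

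**Figure D4:**
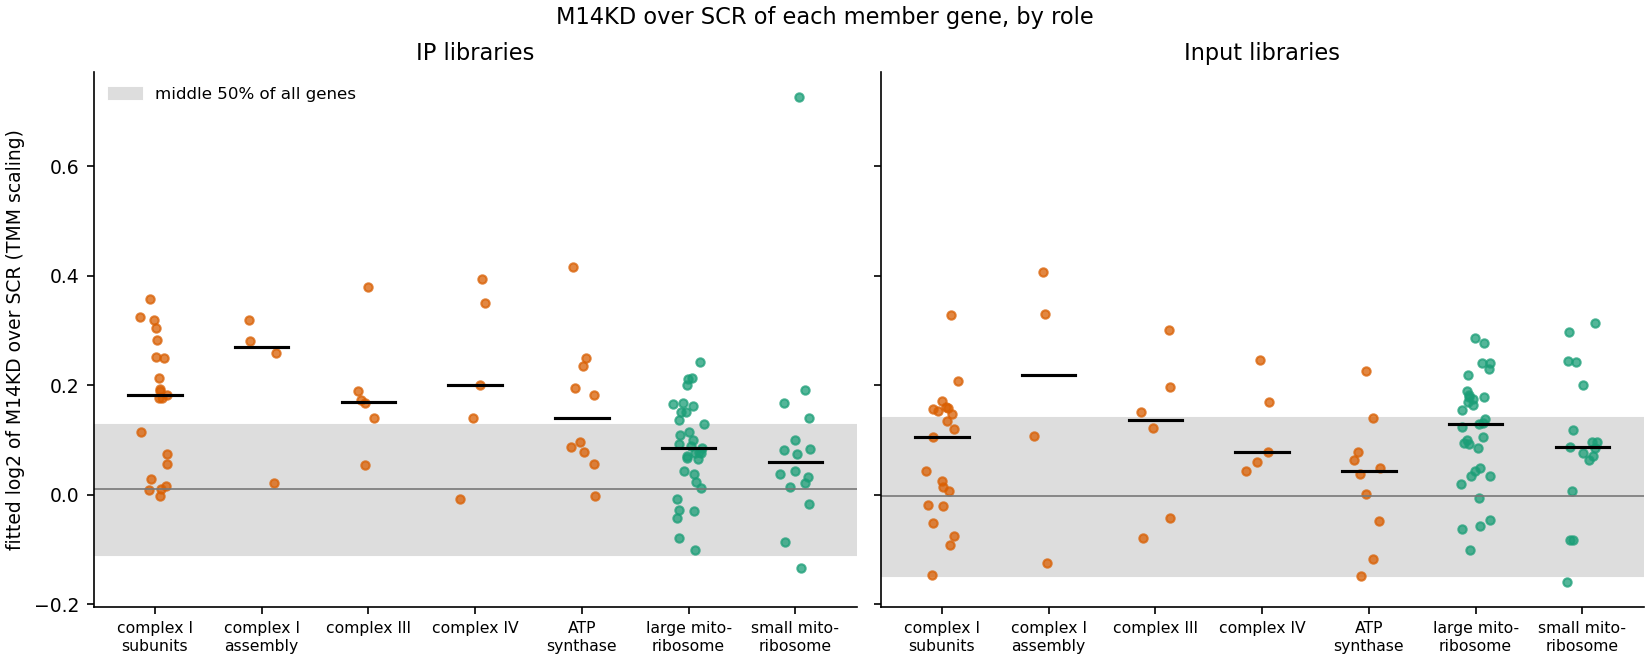
Fitted log2 of M14KD over SCR of each tested member gene (vertical axis) in the IP libraries and in the Input libraries, by role; each point is 1 gene, black bars are medians, and the grey band holds the middle 50% of all genes. Most points lie above 0 in both panels, and no gene passed the adjusted threshold in either.

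**Figure D5:**
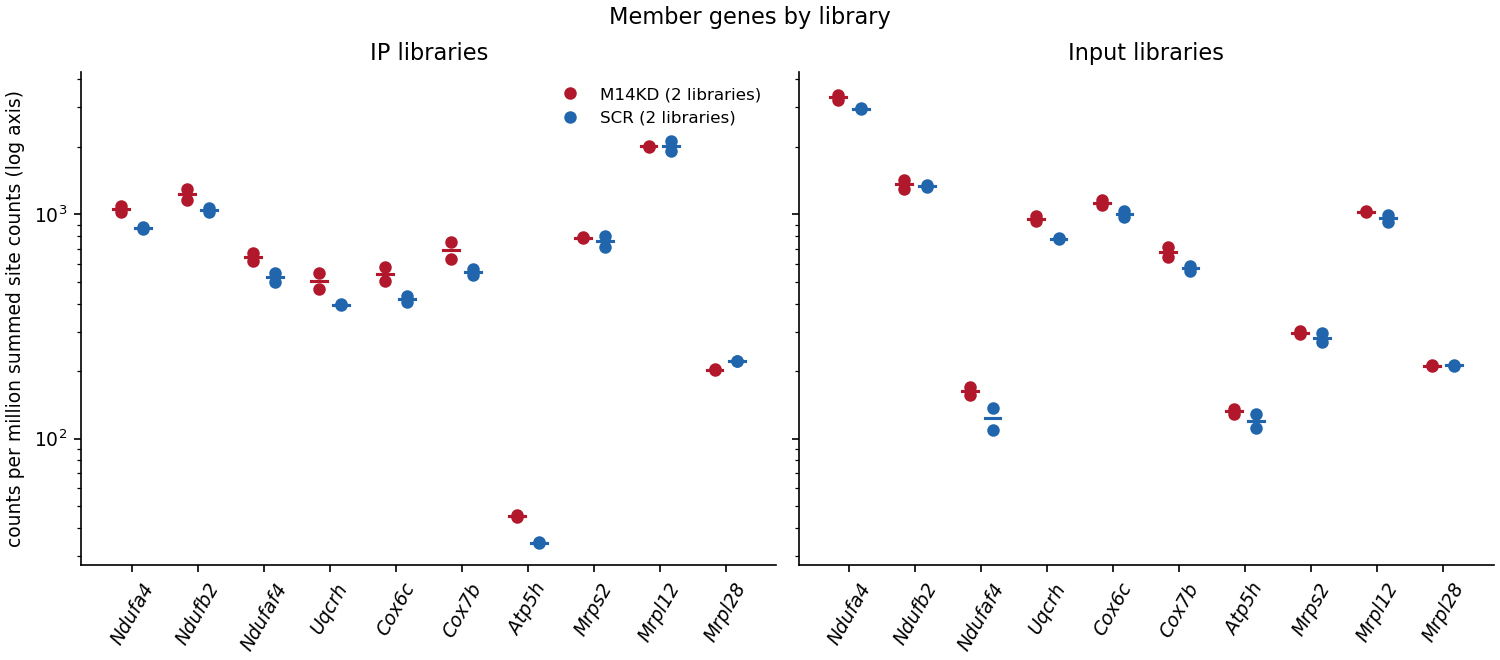
CPM in each library (log axis) for 10 members, with M14KD to the left of SCR in the IP and Input panels; points are libraries and bars are means of 2. In the IP panel the M14KD points of Cox6c, Uqcrh, Ndufa4, Cox7b, Atp5h and Ndufaf4 lie above the SCR points, and those of Mrpl28 lie below.

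At single sites, 6 of 408 tested member sites passed in IP, all higher in M14KD (edgeR), where 0.255% of all 33348 sites tested were called higher and 0.375% lower. At an unadjusted p under 0.05, 98 member sites were higher and 1 lower, where 7.1% of all sites were higher and 6.17% lower. They were 3 sites of Cox6c, 2 of Uqcrh and 1 of Cox7b. At position 35938155 of chromosome 15, Cox6c had 1873 and 1582 counts in M14KD IP and 1371 and 1380 in SCR IP, with a log2 fold change of 0.40 (SE 0.07, edgeR adjusted p = 0.0341). Its other called sites lie 11 and 13 bases away and share most of their counts with it. At position 106015781 of chromosome X, Cox7b had 3905 and 3298 counts in M14KD IP and 3019 and 2767 in SCR IP, with a log2 fold change of 0.39 (SE 0.08). At position 116075013 of chromosome 4, Uqcrh had 2638 and 2098 counts in M14KD IP and 1910 and 1854 in SCR IP, with a log2 fold change of 0.40 (SE 0.08), and its other called site lies 23 bases away. The Cox7b and Uqcrh sites lie within 100 bases of the start, and the strand of Cox6c was not known here. Of the sites that near the start, 3 of 74 tested in respiratory chain and ATP synthase genes were called higher (4.05%). In the rest of the series 10 of 477 such sites were called higher (2.10%) and 0 lower. Without replicate 3 no site passed among the members or in the whole table. Without replicate 1 there were 18 of 410 member sites (4.39%), a share near the 4.25% of all sites, and with column totals there were 4 (0.72% of all sites). Under the gene's own symbol followed by -ps, RefSeq lists 2 pseudogenes of Uqcrh, 3 of Mrps36 and 1 each of Atp5pb, Mrpl27 and Mrpl48. Copies under other symbols were not counted, and how reads were shared with such copies is not given in the sources used here.

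Input libraries were compared to ask whether RNA reads at the same sites changed. No member passed in edgeR: 0 of 96, as 0.0% of all 5826 genes tested. At an unadjusted p under 0.05 there were 16 members, all above 0, where 4.84% of all genes were higher and 5.36% lower, and DESeq2 called 1 (Uqcrh; 0.395% of all genes). Of 96 members 76 had a value above 0, where 49.4% of all genes did, and the median was 0.10 for members and -0.003 for all genes. Both M14KD libraries lay above both SCR libraries for 47 members, where 19.7% of all genes did so, and below for 9, where 21.1% did. The members' sites took 4.06% and 3.92% of M14KD Input counts and 3.67% and 3.78% of SCR Input counts.

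Uqcrh had 936 and 978 CPM in M14KD Input and 780.0 and 772 CPM in SCR Input, with a log2 fold change of 0.30 (SE 0.07, edgeR adjusted p = 0.188). Mrps17, a small mitoribosome subunit protein, had 471 and 448 CPM in M14KD Input and 363 and 376 CPM in SCR Input, with a log2 fold change of 0.31 (SE 0.08), and Ndufaf4 had 0.41 (SE 0.12). In each, both M14KD libraries were the higher ones. Mrps6 (0.24), Cox7b (0.25), Mrpl43 (0.29), Atp5mpl (0.23), Mrps34 (0.30), Ndufaf2 (0.33) and Ndufa4 (0.17) came next in rank of p without passing. On the negative side, Atp5o, a stalk subunit of the ATP synthase, had 789.9 and 757 CPM in M14KD Input and 846 and 868 CPM in SCR Input, with a log2 fold change of -0.15 (SE 0.08). Atp5a1 had -0.12 (SE 0.08). By role the medians were 0.11 for complex I subunits, 0.22 for assembly factors, 0.14 for complex III, 0.08 for complex IV, 0.04 for ATP synthase genes, 0.13 for the large and 0.09 for the small mitoribosome subunit. Of 405 member sites tested in Input none passed in edgeR, where 0.0929% of all sites did, and DESeq2 called 1. At an unadjusted p under 0.05, 73 were higher and 1 lower, where 4.55% of all sites were higher and 4.14% lower.

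Whether the ratio of IP to Input differed between M14KD and SCR was tested as an interaction. No member passed in edgeR or in DESeq2: 0 of 96 in edgeR, as 0.0% of all 6379 genes, with 0 members at an unadjusted p under 0.05, where 2.63% of all genes were. The lowest adjusted p of a member was 0.999. The median was 0.02 for members and 0.00 for all genes, with 0.09 for the respiratory chain and ATP synthase genes and -0.04 for the mitoribosome genes. At sites within 100 bases of the start, the median was 0.11 in the respiratory chain and ATP synthase genes. It was 0.10 there in the mitoribosome genes and 0.08 in the rest of the series. At sites in the last 20% of the span, it was -0.004, -0.09 and -0.02 in that order. The part of site place in the gene medians was not tested. The members of lowest p above 0 were Ndufb2 (0.21, SE 0.10), Ndufv2, a flavoprotein-module subunit of complex I (0.24, SE 0.12), Cox6c (0.21, SE 0.11), Atp5h (0.26, SE 0.15) and Atp5a1 (0.20, SE 0.12). Below 0 they were Mrps17 (-0.23, SE 0.11), Mrps34 (-0.23, SE 0.12), Mrpl13 (-0.27, SE 0.16), Mrps28 (-0.39, SE 0.25) and Mrpl43 (-0.17, SE 0.12). The median SE of a member here was 0.13, with 2 libraries a group. Ndufb2 and Mrps17, with values further from 0 than that SE, also had no unadjusted p under 0.05 in edgeR. Changes of their size could thus not be told from 0 here. At sites 0 of 410 passed in edgeR, as 0.0% of all sites tested, and 17 had an unadjusted p under 0.05, 4 above and 13 below 0, where 3.72% of all sites did.

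Other genes of these pathways were counted from lists. For IP over Input, 35.5% of all genes tested were higher and 35.6% lower in M14KD. In SCR 35.2% were higher and 34.7% lower. Among complex II and electron carrier genes 3 of 9 had sites, and all 3 were lower in IP than in Input in both genotypes, with a median log2 ratio of -1.66 in M14KD and -1.54 in SCR. Among respiratory chain assembly genes outside the members, 26 of 38 were tested, with 7 higher and 12 lower in M14KD and 7 higher and 10 lower in SCR, and medians of -0.17 in M14KD and -0.20 in SCR. Other mitoribosome proteins and mitochondrial translation factors (19 of 25) had medians of -0.22 in M14KD and -0.05 in SCR. Mitochondrial DNA transcription and biogenesis regulators (12 of 16) had 8 higher and 1 lower in M14KD and 7 higher and 1 lower in SCR, with medians of 0.46 in M14KD and 0.48 in SCR. Tricarboxylic acid cycle genes (11 of 17) had 1 higher and 8 lower in each genotype, with medians of -1.08 in M14KD and -1.18 in SCR. For M14KD over SCR no gene of these lists passed in IP, in Input or in the interaction in edgeR. The IP medians of the 5 lists, in the order above, were 0.14, 0.15, 0.03, 0.04 and 0.03. Those in Input were 0.11, 0.08, 0.10, 0.01 and -0.03. Of the respiratory chain assembly genes 20 of 26 were above 0 in IP, where 52.4% of all genes were. The upward lean in IP was thus also present in assembly genes outside the members.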

How the data were processed

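The deposited table gives whole-number counts of reads per site in 8 libraries. To make these counts the authors used STAR, cutadapt and UMI-tools with build mm10, per the submitters' processing notes. For site calling, the counting window and multi-mapping reads, the method was not given in the sources used here. Sites were placed in gene spans with the RefSeq gene table for GRCm38.p6. Sites in the span of 1 protein-coding gene were summed per gene, so a read near several sites may be counted more than once (89.3% of the members' own sites have another within 100 bases). The strand was known for 84 members.

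Genes and sites were tested with edgeR 4.0.16 in R 4.3.3 (filterByExpr, TMM scaling, quasi-likelihood test) across the whole table, with Benjamini-Hochberg adjustment over all genes or sites and a threshold of 0.05. DESeq2 1.42.0, column totals, 1 site per 100 bases, a mean count of at least 20 and leaving out each replicate were alternatives. The procedure was tested on simulated data. IP and Input libraries of 1 replicate number deviated together (correlation 0.253 in M14KD and 0.375 in SCR over 5220 genes). They were treated as paired only in an alternative fit with a replicate block. The main fits held no term for pairing. Genes were named from a list set by rule: the 10 highest and 10 lowest IP over Input ratios in SCR, up to 10 members each way by unadjusted p for M14KD over SCR and 5 for the interaction, members with called sites, the 5 with the most sites and those with a site within 50 bases of the start. Not all genes of that list are named in the text, among them several with a site near the start. Which genes' sites and sequences are shown, and Cox7a2l and Mrpl41 as examples of spread within a gene, were chosen after their values were seen. Members and lists were chosen with earlier results of these data known. Depth was 10207383 to 10918559 counts in IP and 3438530 to 3637740 in Input libraries. The result of 1 named gene is not reported here.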

Additional observations from a re-analysis of the deposited data

How the results depend on the processing

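For M14KD over SCR, DESeq2 called 4 members in IP, 1 in Input and 1 member site in Input, where edgeR called 0. Leaving out each replicate in turn gave 0 to 7 called members and 0 to 18 called member sites in IP, and a median member log2 fold change in Input of 0.075 to 0.147; a lone remaining library is assumed to vary like the other groups. With the replicate block, members called between IP and Input numbered 87 in M14KD and 89 in SCR, against 87 and 86 without it, and called member sites in SCR numbered 354 against 342; interaction calls stayed at 0 for members and member sites. Some values changed sign, among them 1 called value, Mrpl27 in M14KD (0.66 with all sites). With 1 site per 100 bases, IP fold changes of Mrpl20 and Mrps25 were 0.026 and 0.036, and IP over Input in M14KD was -0.18 for Mrpl27 and 0.28 for Mrps34, which had 0.70 with column totals. Without single replicates, the ranges of M14KD over SCR in IP were -0.10 to 0.0066 for Mrpl10, -0.079 to 0.013 for Mrpl38, -0.046 to 0.020 for Cox7a2l and -0.13 to 0.092 for Mrpl4, in Input -0.20 to 0.028 for Ndufa8, and for IP over Input in M14KD -0.11 to 0.074 for Mrps34. The cause of these changes was not tested. Precision is limited by 2 libraries a group and, at genes with few Input counts, by depth.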
